A study of Sus scrofa with 2 samples.

Results

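The genes described here protect cells against reactive oxygen species and lipid peroxides, or set how readily a cell undergoes ferroptosis, a form of cell death driven by iron-dependent peroxidation of membrane lipids. They were taken as a list of 49 symbols, and an Ensembl pig gene ID belonged to the set when its symbol was on that list. Of the 49 symbols, 36 were paired with 1 ID each among the 25322 IDs of the expression table. The other 13 symbols were paired with no ID of the table and are not analysed here: GCLM, GPX1, GPX3, GPX7, SOD2, TXN, TXNIP, GSTP1, GSTK1, MGST1, GLRX, GLRX2 and ALOX12. Of the 36, 34 reached a mean of 1 FPKM over the samples (mapped fragments per kilobase of a transcript, relative to all mapped fragments of the sample), 1 lay below it (KEAP1) and 1 was listed at 0 throughout (SRXN1). The 34 are called the measured genes below.

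RNA came from the hippocampus of piglets of the Rongchang breed, with the genotype given by the labels as "wide type", in 1 control sample and 1 sample from iron dextran treatment, an iron and sugar polymer complex given to piglets against iron deficiency. The question was how iron dextran alters the hippocampal transcriptome. Each sample label lists 2 names without saying what these were, each sample had 1 value per gene, and the sources used here give neither dose nor age nor the number of animals. With 1 sample per group there was no spread between replicates, so no test was made and none of the differences below has a replicate check.

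Glutathione is a small thiol built from cystine-derived cysteine, and the selenoenzyme GPX4 spends it to reduce lipid peroxides inside membranes. Iron feeds the opposite reaction, because ferrous iron turns peroxides into radicals that spread peroxidation through polyunsaturated lipids. The transcription factor NRF2, the product of NFE2L2, is held at a low level by KEAP1 and, when released, switches on genes of glutathione, thioredoxin and NADPH metabolism. The brain is rich in polyunsaturated lipids and oxygen use, and its iron is managed apart from that of the rest of the body.

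On the log2(FPKM + 1) scale, no measured gene of the set was 1.5-fold higher or lower in iron dextran (0 of 34 in each direction). Low genes appear to differ less on this scale than by their ratio, and 1 of them, SLC7A11, passed 1.5-fold with a pseudocount of 0.1 or 0.01 in place of 1. Over all 12557 genes with a mean of at least 1 FPKM, 2.47% were at least 1.5-fold higher (310 genes) and 1.47% were at least 1.5-fold lower (185 genes), or 454 and 132 genes with the columns scaled to the same total. At a lower limit of 0.32 log2 units, 1 measured gene was higher, SLC7A11, and 0 were lower, beside 8.81% and 5.96% of all genes. SLC7A11 reached a mean of 1 FPKM only through its iron dextran value. The median log2 difference, taken as log2(FPKM + 1) after iron dextran minus that in control, was −0.02 over the 34 genes and −0.0046 over all genes. By sign, 14 measured genes lay above 0 and 20 below, beside 6154 and 6402 of all 12557 genes. Within 1.1-fold lay 19 (55.9%, beside 52.2% of all genes). Differences ran from −0.25 (GPX8) to 0.47 (SLC7A11). The direction of the median depended on scaling: it was 0.08 with the columns scaled to the same total, which moved the median of all genes to 0.10, and 23 genes then lay above 0. In these bulk samples fewer cells of a type and less RNA per cell cannot be told apart.

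**Figure D1:**
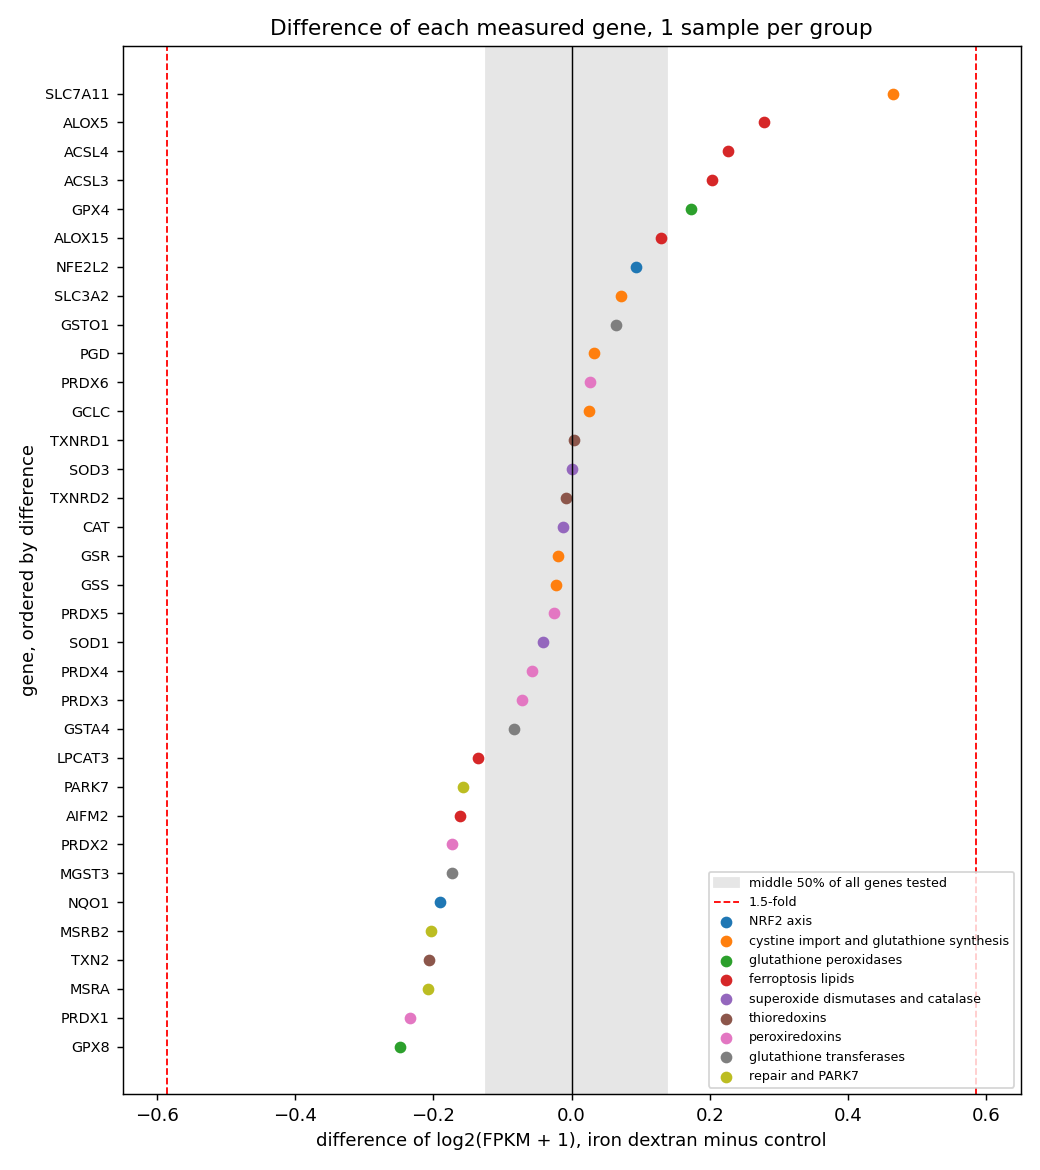
Log2 difference (iron dextran minus control, on FPKM + 1), on the horizontal axis, for each of the 34 measured genes, ordered by value and coloured by role, with 1 sample per group; the grey band holds the middle 50% of all genes tested and the dashed lines mark 1.5-fold. All points lie inside the dashed lines, and SLC7A11 stands highest at 0.47. With the columns scaled to the same total 9 genes below 0 turn above it, and the median of all genes is 0.10.

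Many of these transcripts were abundant. FPKM is a level per length, so levels of different genes can be set side by side on it, as far as each estimate holds. Some estimates may have failed, as for KEAP1 below, and the program that made them is not stated. The median of the mean FPKM was 29.0 over the 34 measured genes and 9.73 over all genes tested, and 10 of the 34 (29.4%) had a mean of at least 100 FPKM, beside 7.80% of all genes. In the order of levels SOD1 and PRDX2 came first, followed by GSTA4, PARK7 and GPX4, and these 5 genes held 61.8% of the summed FPKM of the set in control and 61.9% in iron dextran. The set summed to 3950 FPKM in the control sample and 3744 after iron dextran, which is 0.428% and 0.440% of the respective column totals. Thus the sum was lower in iron dextran while its share of the column was higher, since the whole column summed to less (924070 and 850165 FPKM).

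**Figure D2:**
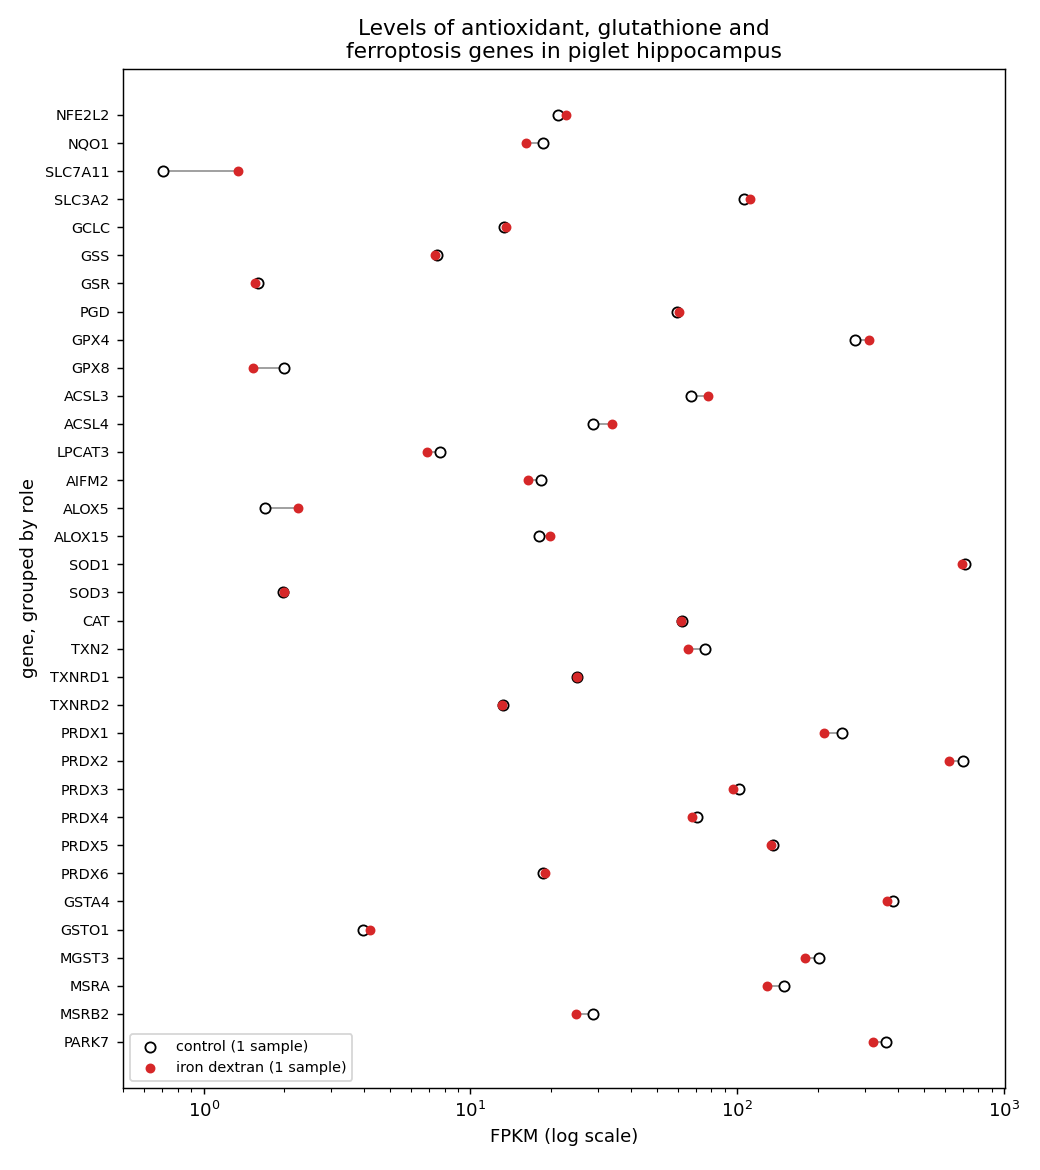
FPKM on a log axis for the 34 measured genes, grouped by role from the top, with open circles for the control sample and filled circles for the iron dextran sample. Levels span from under 1 FPKM (SLC7A11 in control, 0.702) to 715 FPKM (SOD1 in control), and for most genes both circles touch or overlap.

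The NRF2 regulators and their classical target did not differ in the same direction. NFE2L2 (ENSSSCG00000015987), which encodes NRF2, had 21.3 FPKM in the control sample and 22.8 after iron dextran, a log2 difference of 0.09. NQO1 (ENSSSCG00000002754), a quinone reductase widely used as a readout of NRF2 activity, had 18.6 and 16.2 FPKM, a log2 difference of −0.19. KEAP1 (ENSSSCG00000023667), the adaptor that marks NRF2 for degradation, was listed at 0 in control and at 0.0216 FPKM in iron dextran. KEAP1 is expressed by nearly all cells, so its value near 0 may be an estimate that failed, and nothing is read from it here.

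Cystine import held the gene with the highest difference, while the enzymes that make glutathione were nearly level. SLC7A11 (ENSSSCG00000022649), the light chain of the cystine and glutamate exchanger xCT, had 0.702 FPKM in the control sample and 1.35 after iron dextran, a ratio of 1.92. On the log2(FPKM + 1) scale this was 0.47, below the 1.5-fold limit, whereas it passed that limit with a pseudocount of 0.1 (0.85) or 0.01 (0.93). Its level was among the lowest that were measured, and the gene reached a mean of 1 FPKM only through its iron dextran value. Of the 4163 genes with a mean of 1 to 5 FPKM 7.93% had a difference at least as high, which is no independent support. Among measured genes with a mean of at least 5 FPKM the highest difference was 0.23 (ACSL4). SLC3A2 (ENSSSCG00000022404), the heavy chain that carries xCT and other amino acid transporters to the membrane, had 106 and 111 FPKM, a log2 difference of 0.07.

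GCLC (ENSSSCG00000001488), the catalytic subunit of the rate-limiting ligase of glutathione synthesis, had 13.4 FPKM in the control sample and 13.6 after iron dextran. GSS (ENSSSCG00000007287), which adds glycine in the last step, had 7.495 and 7.364 FPKM. GSR (ENSSSCG00000015844), which returns oxidised glutathione to its reduced form, had 1.59 and 1.56 FPKM. All 3 differed by less than 0.03 log2 units, GCLC above 0 and the others below, and GSS and GSR turned above 0 with the columns scaled to the same total. PGD (ENSSSCG00000003402), a pentose phosphate enzyme that supplies the NADPH used by GSR, had 59.3 and 60.7 FPKM, a log2 difference of 0.03.

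The glutathione peroxidases that were measured lay on opposite sides of 0. GPX4 (ENSSSCG00000024052), the peroxidase of membrane lipids whose loss triggers ferroptosis, had 276 FPKM in the control sample and 312 after iron dextran, a ratio of 1.13 and a log2 difference of 0.17. Among the 979 genes with a mean of at least 100 FPKM, whose median difference was −0.0988, 2.76% were at least as high as GPX4. GPX8 (ENSSSCG00000021973), a peroxidase of the endoplasmic reticulum membrane, had 2.001 and 1.527 FPKM, a log2 difference of −0.25. That was the lowest difference of the set, at a level where 12.9% of genes were at least as low.

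The genes that supply and oxidise membrane lipids had the highest median of the roles, 0.17 over 6 genes, with 4 above 0 and 2 below under each scaling. Of all 12557 genes, 6154 were above 0 and 6402 below as deposited. ACSL4 (ENSSSCG00000012583), which activates arachidonic acid for incorporation into phospholipids and so sensitises cells to ferroptosis, had 28.8 FPKM in the control sample and 33.8 after iron dextran, a ratio of 1.18. ACSL3 (ENSSSCG00000016223), which activates monounsaturated fatty acids and is linked to ferroptosis resistance, had 67.3 and 77.6 FPKM, a ratio of 1.15. These acyl-CoA synthetases with opposed reported roles were thus higher by similar amounts, with log2 differences of 0.23 and 0.20. At their level (20 to 100 FPKM, 3035 genes) 5.63% and 6.62% of genes were at least as high.

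LPCAT3 (ENSSSCG00000027205), which inserts the activated arachidonic acid into phospholipids, had 7.67 FPKM in the control sample and 6.90 after iron dextran, a log2 difference of −0.14. AIFM2 (ENSSSCG00000010258), which encodes FSP1 and protects membranes through reduced coenzyme Q independently of GPX4, had 18.4 and 16.4 FPKM, a log2 difference of −0.16. ALOX15 (ENSSSCG00000017923), a lipoxygenase that oxidises arachidonic acid, had 18.0 and 19.8 FPKM. ALOX5 (ENSSSCG00000010404), the lipoxygenase of leukotriene synthesis, had 1.69 and 2.26 FPKM, a ratio of 1.34. On the log2 difference scale ALOX5 came second of the set at 0.28, and ALOX15 had 0.13.

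Microglia and other myeloid cells express ALOX5, and the microglial markers were also higher in iron dextran. Of 7 microglial markers listed, 5 were in the table and all 5 were above 0 on the difference scale, with a summed level of 70.6 FPKM in the control sample and 95.5 after iron dextran. CX3CR1 had 11.3 and 15.7 FPKM and P2RY12, the marker past 1.5-fold, had 9.80 and 20.05. The part of these cells in the ALOX5 value was not tested.

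Superoxide dismutases and catalase were nearly level. SOD1 (ENSSSCG00000021355), the cytosolic copper and zinc enzyme that turns superoxide into hydrogen peroxide, had 715 FPKM in the control sample and 695 after iron dextran. CAT (ENSSSCG00000013302), which breaks hydrogen peroxide down in peroxisomes, had 62.1 and 61.6 FPKM. SOD3 (ENSSSCG00000028814), the secreted dismutase, had 1.991 and 1.993 FPKM. Their log2 differences were −0.04, −0.01 and 0.0006, and each changed sign under at least 1 scaling: SOD1 and CAT turned above 0 with the same total or after centring by level, and SOD3 turned below 0 with the trimmed mean of M values (TMM) or after centring by level.

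In the thioredoxin system, the reductases TXNRD1 and TXNRD2 were nearly level and the mitochondrial thioredoxin was lower. TXN2 (ENSSSCG00000000144), the mitochondrial thioredoxin that passes electrons to PRDX3, had 75.7 FPKM in the control sample and 65.5 after iron dextran, a log2 difference of −0.21. TXNRD2 (ENSSSCG00000010131), the mitochondrial selenoenzyme that reduces it, had 13.25 and 13.17 FPKM. TXNRD1 (ENSSSCG00000000843), the cytosolic reductase and an NRF2 target, had 25.02 and 25.08 FPKM. The signs of both reductases depended on scaling, as TXNRD2 turned above 0 with the same total and TXNRD1 below 0 with TMM.

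Of 6 measured peroxiredoxins, thiol enzymes that remove hydrogen peroxide, 5 were below 0 and 1 above, beside 6402 and 6154 of all 12557 genes. Their median was −0.0645. With the same total PRDX3, PRDX4 and PRDX5 turned above 0 and the median was 0.0543, beside 0.10 over all genes. After centring by level 4 of the 6 were below 0 and the median was −0.0191. PRDX1 (ENSSSCG00000003914), cytosolic and an NRF2 target, had 248 FPKM in the control sample and 211 after iron dextran, 1.18 times as much in control. PRDX2 (ENSSSCG00000013736), which is abundant in neurons and in red cells, had 704 and 624 FPKM, 1.13 times as much in control. These 2 stayed below 0 under every scaling, with log2 differences of −0.23 and −0.17 as deposited. At their level (100 FPKM and over) 8.99% of genes were at least as low as PRDX1 and 20.8% as low as PRDX2.

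PRDX3 (ENSSSCG00000010682), of mitochondria, had 102 FPKM in the control sample and 96.7 after iron dextran. PRDX4 (ENSSSCG00000012171), of the endoplasmic reticulum, had 70.5 and 67.7 FPKM. PRDX5 (ENSSSCG00000013030), found in mitochondria, peroxisomes and cytosol, had 137 and 134 FPKM. PRDX6 (ENSSSCG00000022742), the peroxiredoxin that uses glutathione and can reduce phospholipid peroxides, had 18.7 and 19.0 FPKM. These 4 lay within 0.08 log2 units of 0, and PRDX6 was the member above it. SRXN1, which reactivates overoxidised peroxiredoxins, was listed at 0 in both samples. As with KEAP1, this may be an estimate that failed, and absence is not read from it.

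Red cells are rich in PRDX2 and CAT, and erythroid markers were higher after iron dextran. Of 6 erythroid markers listed, 4 were in the table, summing to 189 FPKM in the control sample and 519 after iron dextran. ALAS2 had 3.29 and 5.78 FPKM, HBB had 183 and 506, HBM had 2.89 and 6.80, and SLC4A1 was listed at 0 in control and at 0.0306 in iron dextran. PRDX2 was below 0 under every scaling, CAT lay above 0 or below it depending on scaling, and the part of red cells in their values was not tested.

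Glutathione transferases join glutathione to reactive molecules, among them aldehydes left by lipid peroxidation. GSTA4 (ENSSSCG00000002627), which prefers the aldehyde 4-hydroxynonenal, had 385 FPKM in the control sample and 364 after iron dextran, a log2 difference of −0.0827. MGST3 (ENSSSCG00000006325), a membrane enzyme with peroxidase activity, had 202 and 179 FPKM, a log2 difference of −0.17. GSTO1 (ENSSSCG00000022351), of the omega class, had 3.97 and 4.20 FPKM, a log2 difference of 0.06. GSTA4 turned above 0 with the same total and after centring by level, and MGST3 stayed below 0 under every scaling. Transferases form families of similar genes, and how reads shared between them were assigned is not stated in the sources used here.

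The repair genes and PARK7 were lower in iron dextran in all 3 cases and under every scaling. As deposited, 6402 of all 12557 genes were lower. The median of these 3 was −0.20 as deposited and −0.0883 with the same total, where that of all genes was 0.10. At 100 FPKM and over, the level of MSRA and PARK7, the upper quartile of all genes was −0.0275. MSRA (ENSSSCG00000009684), which reduces the S form of oxidised methionine in proteins, had 149 FPKM in the control sample and 129 after iron dextran. MSRB2 (ENSSSCG00000011077), its mitochondrial counterpart for the R form, had 28.7 and 24.8 FPKM. Each had 1.16 times as much in control. PARK7 (ENSSSCG00000003385), which encodes DJ-1, a redox-sensing protein mutated in a familial form of Parkinson's disease, had 360 and 323 FPKM, 1.12 times as much in control. At their levels, 12.7% (MSRA), 11.8% (MSRB2) and 25.7% (PARK7) of genes were at least as low.

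The size and sign of a difference went with the level of a gene across the whole table, so the measured genes were also set beside all genes of like level. Over all genes the median difference was 0.06 at 1 to 5 FPKM, 0.0170 at 5 to 20, −0.0454 at 20 to 100 and −0.0988 at 100 and over. Of the 34 measured genes, 17 lay above the median of their level and 17 below, and 16 lay within its quartiles. The share of genes past 0.32 log2 units in either direction was 25.01%, 13.6%, 5.90% and 3.88% in these 4 levels, and of the 28 measured genes at 5 FPKM or more none was past it. By definition, 5% of all genes of a level lie below its 5th percentile and another 5% lie above its 95th. Of the 34 measured genes 1 lay outside this range at either end, GPX4, at a level where the range was −0.28 to 0.0973. At 100 FPKM and over, 8 of 10 measured genes were below 0, and 5 of 10 were below the median of that level. The upper quartile of all genes at that level was −0.0275, so most of them lay below 0 as well.

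**Figure D3:**
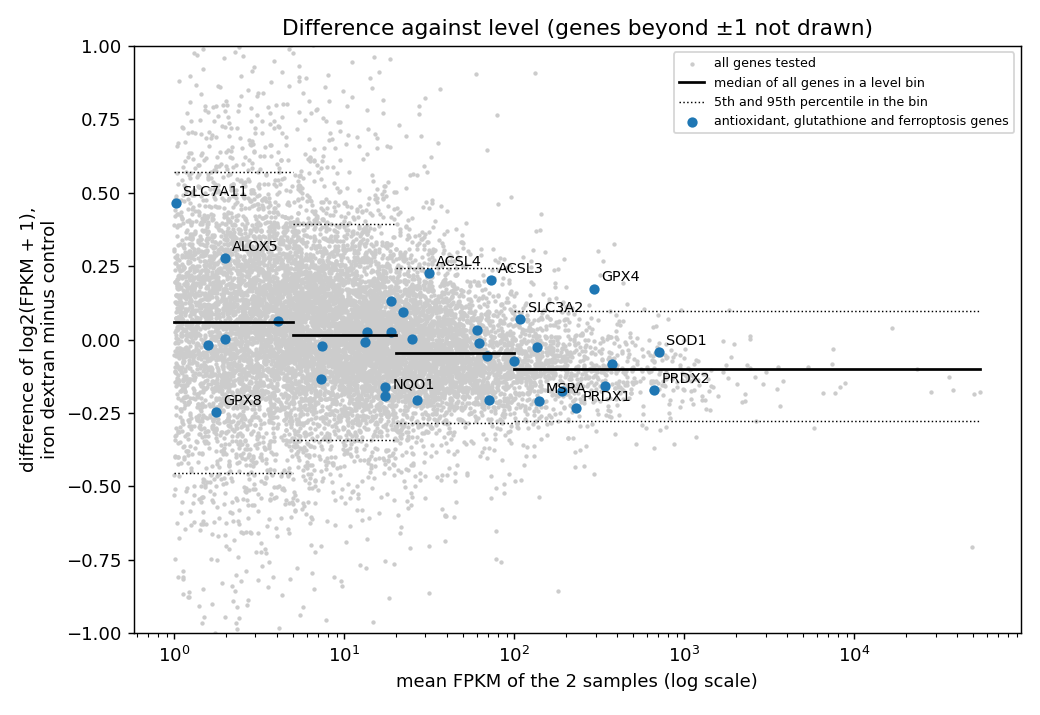
Log2 difference (iron dextran minus control, on FPKM + 1) against the mean FPKM of both samples on a log axis, for all genes tested (grey) and the 34 measured genes (blue); solid bars are medians and dotted bars the 5th and 95th percentiles of all genes in 4 levels, and 146 genes beyond ±1 are not drawn. The medians go from 0.06 at the lowest level to −0.0988 at the highest, and GPX4 is the blue point outside the dotted bars.

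Further genes of the same pathways were taken from a separate list of 106 symbols, of which 72 had an ID and 54 reached a mean of 1 FPKM. Of these 54, 1 was higher by 1.5-fold or more after iron dextran and 0 were lower by that much, again beside 2.47% and 1.47% of all genes. The median log2 difference was −0.0494, and it was 0.0660 with the columns scaled to the same total, beside 0.10 over all genes. As deposited, 19 lay above 0 and 35 below, beside 6154 and 6402 of all genes. The gene past 1.5-fold was PTGS2 (ENSSSCG00000015579), the inducible cyclooxygenase that is often used as a marker of ferroptosis and is also an activity gene of neurons, with 1.11 and 2.40 FPKM. The lowest were TFRC (ENSSSCG00000011848), the transferrin receptor, with 7.98 and 5.43 FPKM, and TXNRD3 (ENSSSCG00000023929), a thioredoxin and glutathione reductase, with 7.19 and 5.38. NCF1 (ENSSSCG00000007722), a cytosolic subunit of the phagocyte NADPH oxidase, came next with 5.06 and 3.96 FPKM.

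The NADPH group, whose enzymes fuel glutathione and thioredoxin reduction, had 8 of 9 genes below 0, beside 6402 of all 12557 genes. Its median was −0.0689. With the same total 5 of 9 lay above 0 and the median was 0.0501, beside 0.10 over all genes. After centring by level 7 of 9 lay below 0 and the median was −0.0235. TKT, the transketolase of the pentose phosphate pathway, had 193 FPKM in the control sample and 171 after iron dextran. In the group of NRF2 regulation, 3 of 5 lay above 0, beside 6154 of all 12557 genes. MAFF, among these 3, reached a mean of 1 FPKM only through its iron dextran value. CUL3, the ubiquitin ligase scaffold that works with KEAP1, had 7.97 and 9.80 FPKM. SESN1, a stress-induced sestrin, had 17.4 and 23.2 FPKM, and 1.42% of genes of its level (20 to 100 FPKM) were at least as high. Its mean of 20.3 FPKM lay near the lower edge of that level. At 5 to 20 FPKM the 95th percentile of all genes was 0.394, beside the SESN1 difference of 0.395. ALOX5AP, the membrane partner that ALOX5 needs, had 36.9 and 42.2 FPKM, and NCOA4, which delivers ferritin for degradation, had 35.1 and 40.1. FTL, the light subunit of the iron store ferritin, had 1806 and 1699 FPKM. The 6 genes whose values this paragraph gives were picked once those values were known.

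**Figure D4:**
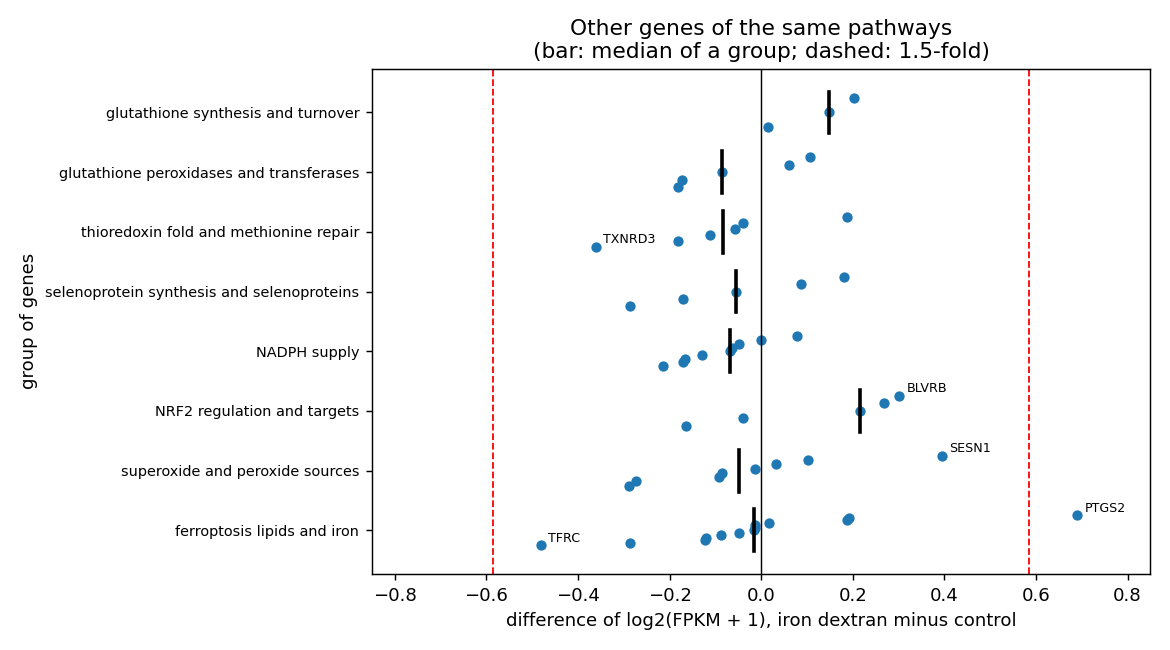
Log2 difference (iron dextran minus control, on FPKM + 1) for the 54 other pathway genes (points) in 8 groups, with a bar at each group's median and dashed lines at 1.5-fold. PTGS2 is the point beyond a dashed line, at 0.69. With the columns scaled to the same total 6 group medians below 0 turn above it, and the median of all genes is 0.10.

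Markers of the labelled tissue and of other cells were read in the same table. Of 7 markers of hippocampal neurons, 5 were in the table: SNAP25 had 1032 and 952 FPKM, SYN1 270 and 236, and C1QL3 11.5 and 16.5. PROX1 (0.761 and 0.858) and ZBTB20 (0.150 and 0.0820), which mark hippocampal neurons more narrowly, were below 1 FPKM. As with KEAP1, values this low may be estimates that failed, and absence is not read from them. Of 5 oligodendrocyte markers in the table, 1 lay above 0 and 4 below on the difference scale: MOG had 24.98 FPKM in the control sample and 27.76 after iron dextran, while CNP had 878 and 762 and MAG had 620 and 520. Astrocyte markers summed to 1594 and 1530 FPKM, most of it GFAP (1275 and 1145), but 3 of 5 lay above 0 and their median log2 difference was 0.27. SLC1A3 had 116 and 143 FPKM, GJA1 178 and 216, and SLC1A2 12.8 and 15.7. Endothelial markers summed to 20.4 and 18.8 FPKM, meningeal and fibroblast markers to 49.9 and 45.2, and choroid plexus and ependymal markers to 30.02 and 31.94 (TTR 19.9 and 24.2, FOXJ1 8.89 and 6.14). Their part in the values above was not tested.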

How the data were processed

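RNA sequencing values of 1 control and 1 iron dextran sample were read from a table deposited by the authors in FPKM, per the file headers and name, with 1 row per Ensembl pig gene ID. Per the submitters' processing notes, cutadapt 1.2.1, TopHat and the builds Sscrofa10.2 and susScr3 were used. The program that made FPKM, its annotation and its use of strand are not stated in the sources used here, so reads of overlapping or antisense genes cannot be told apart. Symbols came from a table of Ensembl IDs, which matched 11804 of 25322 IDs. No coordinates or sequences of the build were used.

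The log2(FPKM + 1) value in control was subtracted from that in iron dextran for genes whose mean FPKM was 1 or more (Python 3.11.15, pandas 2.3.3, numpy 2.4.6) and a gene was called from 1.5-fold. The calling was tested on simulated data whose noise was the same at every level, unlike these data, so that run checks the code only. The members and lists were chosen with earlier results of these data known. All members with an ID are named, as are other pathway genes past 1.5-fold or the 3 lowest where none passed, and of each marker list the first gene and those past 1.5-fold; some genes that this rule takes are left out of the text. Alternatives were other pseudocounts, filters, folds and column scalings, TMM trimming 30% of M values and 5% of A values per side. Centring by level bin was chosen after seeing the data. The number of fragments is unknown. Among 690 genes under 0.1 FPKM in control, 52.8% of the ratios of iron dextran to control lay within 0.05 log2 units of 1, 2 or 0.5 times a common value of 0.947, a relative depth of 1.06.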

Additional observations from a re-analysis of the deposited data

How the results depend on the processing

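No paired analysis was possible because each group had 1 sample, and leaving out a replicate was not possible for the same reason. The count of measured genes 1.5-fold higher was 0 as reported and 1 (SLC7A11) with a pseudocount of 0.1 or 0.01 and at 0.32 log2 units; the count lower was 0 under each of the 10 alternatives. The median difference of the measured genes (−0.02 as reported) was −0.0255 and −0.0256 with pseudocounts of 0.1 and 0.01, −0.0336 at 5 FPKM and over, −0.0280 with TMM, −0.0039 after centring by level and 0.0828 with equal column totals. That of the other pathway genes (−0.0494 as reported) was −0.0158 without a filter, −0.0567 at 5 FPKM, −0.0448 after centring on the median, −0.0587 with TMM, 0.0660 with the same total and −0.0143 after centring by level. Their count 1.5-fold higher (1) was 0 at 5 FPKM and at 2-fold and 2 at 0.32 log2 units, and the count lower (0) was 2 at 0.32 log2 units. Over all genes, 310 higher and 185 lower became 558 and 332 with a pseudocount of 0.1, 599 and 357 with 0.01, 113 and 71 at 5 FPKM, 1106 and 748 at 0.32 log2 units, and 93 and 53 at 2-fold, and 434 and 282 without a filter. The absolute depth is unknown, so no counting interval can be given, and genes near 1 FPKM such as SLC7A11 are the least certain.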

Other observations

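Ratios of levels within a sample do not depend on how the columns are scaled, so a few were taken between genes that work together, picked once the values were known. The xCT heavy chain exceeded its light chain in level, with SLC3A2 over SLC7A11 at 151 in control and 82.4 in iron dextran, and SLC3A2 also serves other transporters. SLC7A11 had only 0.702 FPKM in control and 1.35 in iron dextran, so this ratio rests on values near the lower limit of measurement. GPX4 over AIFM2, enzymes of separate routes of protection from lipid peroxidation, was 15.0 in control and 19.0 in iron dextran, while GPX4 over ACSL4 was 9.61 and 9.22. ACSL3 over ACSL4 was 2.34 and 2.29, PRDX2 over PRDX1 was 2.84 and 2.96, and MSRA over MSRB2 was 5.19 and 5.20. TXN2 over TXNRD2 was 5.72 in control and 4.97 in iron dextran. ALOX15 over ALOX5 was 10.7 and 8.75. None of these ratios has a replicate check.

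Apart from SRXN1, a further 3 genes of these pathways were listed at 0 in both samples: HPGDS, SLC40A1 and GLS2. ALOX15B, a lipoxygenase, lay below a mean of 1 FPKM with 1.12 FPKM in the control sample and 0.623 after iron dextran, and BACH1, a repressor of NRF2 targets whose activity heme controls, had 0.454 and 0.754.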
